A study of Mus musculus with 6 samples.

Results

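Blood and lymphatic vessels of the healing Achilles tendon were described through 10 genes that mark the cells lining them. The set was given by name as markers of endothelial identity, with earlier results of these data known, so that its counts are a description. It holds *Pecam1*, *Cdh5*, *Emcn*, *Kdr*, *Flt1*, *Tek*, *Tie1* and *Vwf* of the blood endothelium, and *Prox1* and *Flt4* of the lymphatic endothelium, out of 18099 genes in the expression table. RNA sequencing was performed on injured tendon tissue of neonatal mice 7 days after transection, in 3 *LysM-Cre; Ampkα1 fl/fl* mice and 3 littermate *Ampkα1 fl/fl* mice, the control group. All 6 mice carried the floxed Ampkα1 allele, and the tendons of both groups were transected. LysM-Cre drives recombination in myeloid cells, so that the deletion was directed at macrophages and their relatives, whereas the RNA came from the whole tissue and from every cell type in it. The *LysM-Cre; Ampkα1 fl/fl* animals are called knockout mice below. Each group is given as mice 1, 2 and 3, after the replicate numbers of the labels. The design names 3 mice per condition, and whether a library holds the tendons of 1 or both legs is not stated.

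Endothelial cells form the inner wall of every vessel. The VEGF receptors and the TIE receptors on their surface receive signals from VEGF and angiopoietin ligands, and the junction proteins PECAM1 and VE-cadherin (*Cdh5*) hold neighbouring cells together. Lymphatic endothelium develops from venous endothelium under the transcription factor PROX1 and grows through VEGFR3 (*Flt4*), the receptor of VEGF-C and VEGF-D. Healthy tendon has few vessels, and vessels grow into it as it heals.

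Reads were between 18076805 and 19479880 in a library, and every one of the 10 genes was above the filter on low counts, among 14261 genes tested. The labelled tissue was checked against tendon genes, of which *Tnmd*, the gene of a tenocyte membrane protein, had 29222 to 37910 reads in each library. The targeted gene *Prkaa1*, which encodes AMPKα1, had 740, 688 and 690 reads in control mice and 626, 751 and 652 in knockout mice (log2 fold change -0.08, adjusted p = 0.744 by edgeR's quasi-likelihood test). *Lyz2*, the locus that carries the LysM-Cre insertion, separated the groups with 7372 to 7778 reads against 8 to 15. The groups thus differ in Cre and in *Lyz2* RNA as well as in the targeted deletion, and their parts cannot be told apart here. Skeletal muscle genes varied widely, from 530 to 8405 TPM (the level per transcript length, scaled to one total in every library) summed over 15 genes in control mice and from 2876 to 24346 in knockout mice. Globin and other red cell genes were lower in every knockout mouse, and 6 of 7 tested passed the threshold, of which 1, *Hbb-bs*, did so with the mouse number as a block. In whole tissue, fewer cells of a type and less RNA per cell cannot be told apart.

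None of the 10 genes passed an adjusted p of 0.05 by edgeR, against 0.898% of all genes tested (0.568% for genes lower in knockout mice). DESeq2 called 3 of them, all lower, against 4.77% of all genes (2.65% for lower genes). The estimates were nevertheless unequal. *Prox1*, *Flt4* and *Tek* had the most clearly separated values and stood at 0.61, 0.75 and 0.80 times the control level in the knockout group, whereas *Pecam1*, *Emcn*, *Kdr* and *Flt1* differed by less than 5%. In 9 of the 10 genes the estimate was below 0, with a median log2 fold change of -0.21, beside -0.002 over all genes tested, of which 50.6% were lower. At an unadjusted p under 0.05, 4 of the 10 genes were lower, beside 8.55% of all genes. In 5 of the 10, *Cdh5*, *Tie1*, *Tek*, *Flt4* and *Prox1*, every knockout mouse lay below every control mouse, beside 11.4% of all genes that were lower without overlap and 20.4% without overlap in either direction. These 10 genes share cells and libraries and are not independent of each other.

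By the level per length, in TPM, the genes spanned a wide range in control mice. *Pecam1* was the highest at 161 ± 9.63 TPM (SD, n = 3), and *Cdh5* followed at 104 ± 2.56. *Tie1* (48.2 ± 1.98) and *Emcn* (42.6 ± 2.87) came next. *Kdr*, *Tek* and *Vwf* lay at 30.6 ± 1.19, 30.1 ± 1.05 and 29.99 ± 2.36 TPM, which did not differ beyond their spread. *Flt1* (11.7 ± 1.34) stood above *Flt4* (9.47 ± 0.144), and *Prox1* was the lowest at 3.22 ± 0.539. In the knockout group, the same genes led and closed the order, with 153 ± 4.04 TPM for *Pecam1* and 1.98 ± 0.0404 for *Prox1*.

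**Figure D1:**
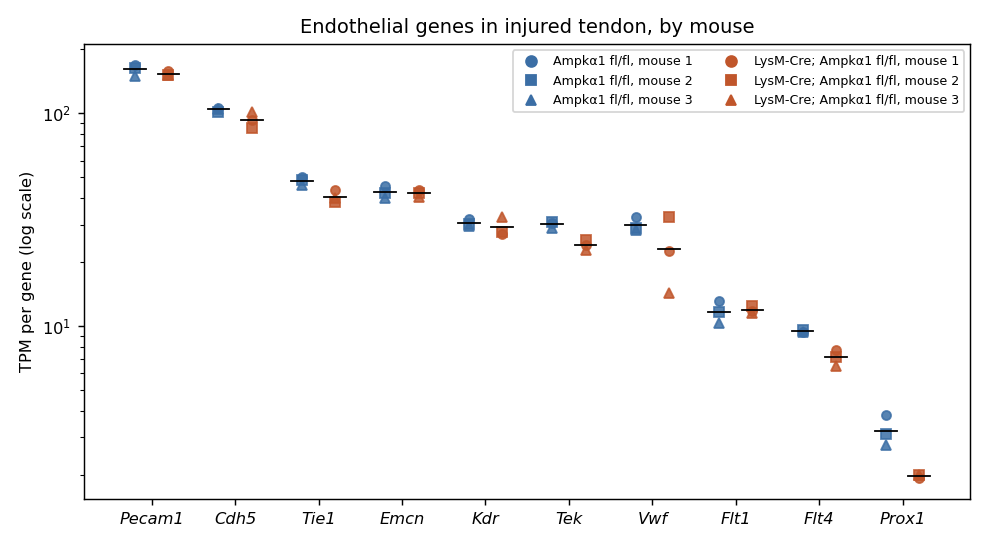
TPM (log scale) of the 10 endothelial genes in each mouse, with control mice in blue, knockout mice in orange, the mouse number as the symbol and the group mean as a line. The orange points lie apart from and below the blue ones for Tek, Tie1, Flt4 and Prox1 and mix with them for Pecam1, Emcn, Kdr and Flt1, and those of Vwf are spread from 14.3 to 32.4 TPM.

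The lymphatic genes are described first. *Prox1* encodes the homeobox factor that sets and keeps lymphatic identity. It had 14.3, 12.2 and 10.3 CPM (reads per 1000000 reads of the library) in control mice 1, 2 and 3, and 7.25, 7.46 and 7.89 CPM in knockout mice 1, 2 and 3. The lowest control mouse was above the highest knockout mouse, and the control mice were more widely spread (SD 2.02) than the knockout mice (SD 0.327). The log2 fold change was -0.71 ± 0.14 (SE), with adjusted p = 0.086 by edgeR, so that the difference did not pass the threshold. An exact two-sided permutation test on log2(CPM + 0.5) gave p = 0.1, the smallest that 3 mice against 3 can give.

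*Flt4* encodes VEGFR3, whose ligands VEGF-C and VEGF-D drive lymphatic growth, and which tip cells of sprouting blood vessels also carry. It stood at 25.7, 27.5 and 25.7 CPM in control mice and at 21.5, 19.3 and 18.5 CPM in knockout mice. The groups did not overlap, and the gap between them was wider than the spread within either. The log2 fold change was -0.41 ± 0.08, with adjusted p = 0.0851 (edgeR).

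Among the blood endothelial genes, the TIE receptors had the lowest adjusted p-values. *Tek* encodes TIE2, the receptor of the angiopoietins, which keeps vessels quiescent and stable. Its values were 66.0, 70.4 and 63.3 CPM in control mice and 53.6, 54.2 and 51.2 CPM in knockout mice. The groups lay apart, with a log2 fold change of -0.33 ± 0.06 and adjusted p = 0.0665 (edgeR), the lowest of the 10 genes. *Tie1* encodes the related receptor TIE1, which has no angiopoietin ligand of its own and modulates TIE2. It had 87.9, 89.2 and 81.6 CPM in control mice, and 78.7, 66.0 and 73.2 CPM in knockout mice. These groups did not overlap either, and the log2 fold change was -0.25 ± 0.08 with adjusted p = 0.203 (edgeR). Each of *Prox1*, *Flt4* and *Tek* passed 0.05 in DESeq2, with adjusted p = 0.012, 0.0242 and 0.0071, whereas all other alternatives with edgeR or limma left them above it. In simulated counts, 21.53% of the DESeq2 calls were false, against 8.12% of those by edgeR.

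The promoters of *Prox1*, *Flt4* and *Tek*, the genes whose estimates were lowest with separate groups, are shown to compare their sequence. Promoter windows of GRCm38.p6 hold 300 bases, and 8 of them matched 7 of the 10 genes (2 for *Prox1*, 1 each for *Flt4*, *Tek*, *Tie1*, *Kdr*, *Flt1* and *Emcn*). In *Flt4* and the first *Prox1* promoter, the window runs from 250 bases before the RefSeq gene start to 50 bases after it. The RefSeq start of *Tek* is chr4:94739086, so most of its window lies inside the gene. The windows of *Kdr* and *Flt1* lie wholly inside these genes. Capitals mark GGAAG, the core bound by ETS factors, which are common regulators of endothelial genes, or its reverse complement CTTCC. The *Flt4* promoter lies on the plus strand at chr11:49609429-49609728, the first of the *Prox1* promoters on the minus strand at chr1:190170778-190171077, and the *Tek* promoter on the plus strand at chr4:94739039-94739338.
Flt4: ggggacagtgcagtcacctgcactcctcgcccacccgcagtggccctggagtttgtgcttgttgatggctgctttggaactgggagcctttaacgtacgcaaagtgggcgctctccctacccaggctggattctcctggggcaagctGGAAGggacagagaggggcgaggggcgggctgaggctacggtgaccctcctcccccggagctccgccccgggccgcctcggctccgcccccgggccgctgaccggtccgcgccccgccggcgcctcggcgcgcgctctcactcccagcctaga
Prox1: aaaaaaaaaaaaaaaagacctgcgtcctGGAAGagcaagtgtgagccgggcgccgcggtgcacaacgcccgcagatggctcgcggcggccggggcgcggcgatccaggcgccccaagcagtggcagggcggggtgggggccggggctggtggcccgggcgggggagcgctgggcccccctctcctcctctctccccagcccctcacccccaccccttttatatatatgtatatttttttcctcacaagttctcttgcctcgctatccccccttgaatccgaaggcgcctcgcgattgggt
Tek: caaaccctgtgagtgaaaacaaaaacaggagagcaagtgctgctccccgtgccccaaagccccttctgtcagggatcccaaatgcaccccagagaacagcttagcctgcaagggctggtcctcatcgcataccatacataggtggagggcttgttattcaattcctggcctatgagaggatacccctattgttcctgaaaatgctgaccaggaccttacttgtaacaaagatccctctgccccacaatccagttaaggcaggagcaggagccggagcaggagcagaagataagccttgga
GGAAG was found on either strand in 7 of the 8 promoters, with 1 match in *Flt4*, 1 in this *Prox1* promoter and 7 in *Tie1*, and it is present in 71.4% of all 32851 promoters of this length. *Tek* holds none of these letters in this window. The core ACAAT of SOX factors was found in 2 of the 8, *Tek* and *Emcn*, beside 31.02% of all promoters. These matches describe the letters in the window and not binding.

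**Figure D2:**
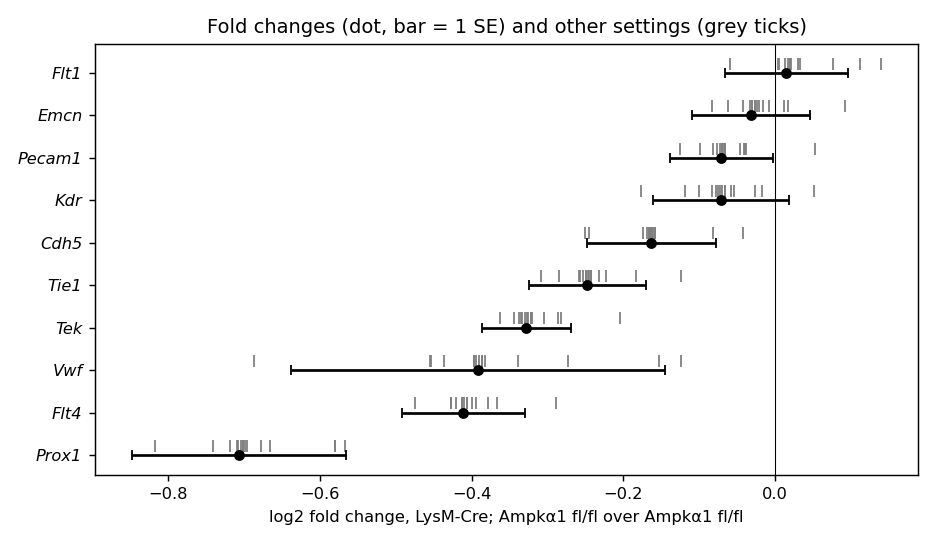
Log2 fold change of the knockout over the control group for the 10 genes (dot, with 1 SE of the edgeR estimate as the bar) and the values under the 15 other settings (grey ticks). Prox1, Flt4, Tek, Tie1, Cdh5 and Vwf stay below 0 in all of them, Prox1 between -0.82 and -0.57, and the ticks of Pecam1, Emcn, Kdr and Flt1 fall on both sides of 0.

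The VEGF receptors of blood vessels stood near the same level in both groups. *Kdr* encodes VEGFR2, the main signalling receptor of VEGF-A. It had 88.0, 87.7 and 82.5 CPM in control mice and 76.8, 75.6 and 93.4 CPM in knockout mice, with the highest value of all 6 in knockout mouse 3. Its log2 fold change was -0.07 ± 0.09 (adjusted p = 0.779, edgeR). *Flt1* encodes VEGFR1, which binds VEGF-A tightly, signals weakly and limits VEGFR2 signalling. The values were 40.2, 38.0 and 33.2 CPM in control mice and 37.3, 38.1 and 37.2 CPM in knockout mice, all within the control range. Its log2 fold change was 0.02 ± 0.08 (adjusted p = 0.958, edgeR), and it was the 1 gene of the 10 with an estimate above 0.

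The deposited values are given per transcript, so that *Flt1* could be split into the forms it is known for. The long transcript (NM_010228) encodes the membrane receptor of 1333 amino acids, and a shorter one (NM_001363135) leaves out the coding exons after the 13th and ends in 95 coding bases of its own, with a protein of 688 amino acids that lacks the membrane-spanning and kinase parts, the soluble decoy form of VEGFR1. Those 95 bases lie on the minus strand at chr5:147639130-147639224 of GRCm38.p6 and are shown in capitals after the last 30 shared coding bases.
Flt1 short form: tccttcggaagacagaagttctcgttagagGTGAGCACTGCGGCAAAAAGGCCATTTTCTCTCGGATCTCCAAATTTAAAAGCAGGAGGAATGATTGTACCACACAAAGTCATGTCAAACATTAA
By the authors' TPM, the long transcript was at 8.19, 7.75 and 7.26 in control mice and at 7.30, 7.45 and 7.39 in knockout mice. The short transcript was at 4.38, 3.67 and 3.14 TPM in control mice and at 4.13, 4.81 and 3.74 TPM in knockout mice. It made up 31.7% ± 1.67 (SD, n = 3) of *Flt1* TPM in control mice and 35.4% ± 3.15 in knockout mice, and the shares overlapped, with control mice between 30.2% and 33.5% and knockout mice between 32.4% and 38.7%.

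Of the pan-endothelial surface genes, *Pecam1* and *Emcn* differed little between the groups. *Pecam1*, the adhesion molecule CD31 by which vessels are commonly stained and which platelets and some leukocytes also carry, had 247.8, 249.97 and 221.5 CPM in control mice and 236.97, 217.8 and 229.98 CPM in knockout mice. The groups overlapped, and the log2 fold change was -0.07 ± 0.07 (adjusted p = 0.693, edgeR). *Emcn*, a sialomucin of capillary and venous endothelium, overlapped likewise, with 25.7, 24.6 and 22.4 CPM against 24.7, 22.9 and 23.5 CPM, and a log2 fold change of -0.03 ± 0.08 (adjusted p = 0.9, edgeR). *Cdh5*, the gene of VE-cadherin, had almost one value in the control mice, at 193.0, 192.3 and 191.95 CPM. Knockout mice had 172.7, 152.1 and 190.9 CPM, which were all lower, knockout mouse 3 by about 1 CPM. Its log2 fold change was -0.16 ± 0.08 (adjusted p = 0.442, edgeR).

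*Vwf* encodes von Willebrand factor, which endothelial cells of larger vessels store and secrete and which platelets need to adhere. It had 137.5, 127.4 and 120.2 CPM in control mice. Knockout mice had 96.7, 134.2 and 62.6 CPM, so that knockout mouse 2 lay in the control range, mouse 1 below it and mouse 3 far below it. The SD was 35.8 in the knockout group and 8.71 in the control group, and the log2 fold change was -0.39 ± 0.25 (adjusted p = 0.527, edgeR). This estimate depended on single mice, at -0.15 without knockout mouse 3 and -0.69 without knockout mouse 2. It was -0.12 when a score of skeletal muscle genes entered the fit.

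Knockout mouse 3 was also the lowest of the 6 in 6 of 11 arterial genes and in 3 of 6 venous genes, but also in 5 of 10 other lymphatic genes, 8 of 10 macrophage genes, 4 of 5 platelet genes and 4 of 4 pan-leukocyte genes, beside 18.3% of all genes tested. *Gja5*, which encodes the arterial gap junction protein connexin 40, had 23.8, 30.2 and 26.3 CPM in control mice and 19.4, 28.8 and 10.5 CPM in knockout mice. The smooth muscle myosin gene *Myh11* had 144, 126 and 160 CPM in control mice and 90.2, 125 and 45.7 CPM in knockout mice, with the same order of the 3 knockout mice as *Vwf*. *Gja5* and *Myh11* were chosen after their values were seen. Knockout mouse 3 also had the largest skeletal muscle sum, 24346 TPM, and whether that plays a part in its vessel values was not tested.

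In the other genes, transcripts could be told apart less well. *Tek* was split over 2 main transcripts whose coding sequences differ by 3 bases, with 54.2% and 40.3% of its reads, and both were lower on average in knockout mice. *Vwf* had 36.8% of its TPM in a predicted transcript (XM_006505917) in control mouse 1 and 38.7% in knockout mouse 2, and at most 0.134% in the other 4 mice. The main *Prox1* transcript (NM_008937) was listed at 0 in knockout mouse 1 and made up 90.0% of *Prox1* TPM in knockout mouse 3. Estimated splits of this kind move between transcripts of a gene that share most of their sequence, and the gene sums above do not depend on them.

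**Figure D3:**
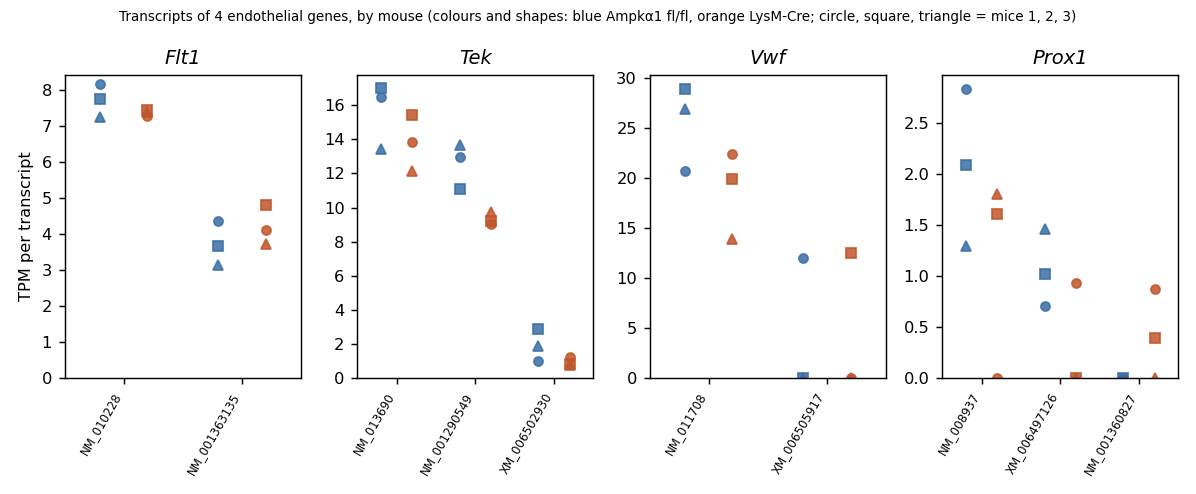
TPM of each transcript with at least 5% of the reads of Flt1, Tek, Vwf and Prox1, by mouse (control in blue, knockout in orange, mouse number as the symbol). Both Flt1 forms overlap between the groups, while the second Vwf transcript is above 12 TPM in 1 mouse of each group and near 0 in the others.

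Across the 6 libraries, 41 of the 45 pairs of the 10 genes had a positive Pearson correlation of log2 CPM, with a median of 0.532. The libraries share the group difference and their depth, and these coefficients are a description over 6 points. *Flt4* and *Tek* ran most closely together (r = 0.961), followed by *Tek* and *Prox1* (r = 0.911), *Pecam1* and *Emcn* (r = 0.903) and *Flt4* and *Tie1* (r = 0.898). *Cdh5* and *Kdr* also went together (r = 0.817), both with their highest knockout value in mouse 3. *Vwf* went apart from *Kdr* (r = -0.432). The 5 genes outside the set closest to the mean log2 CPM of the 10 were *Tcf3* (r = 0.995), *B4gat1* (r = 0.994), *Cep112* (r = 0.992), *Cd209a* (r = 0.989) and *Klhl4* (r = 0.989).

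Beside the 10 genes, 92 further vascular genes in 8 lists were read from the same fit, of which 91 were tested. By edgeR, 0 passed an adjusted p of 0.05, while 31 had an unadjusted p under 0.05 (24 lower and 7 higher), beside 14.5% of all genes (8.55% lower). DESeq2 called 12 of the 91, beside 4.77% of all genes, and edgeR with the mouse number as a block called 1, *Lyve1*. The estimate was below 0 in 59 of the 91, and their median log2 fold change was -0.09.

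**Figure D4:**
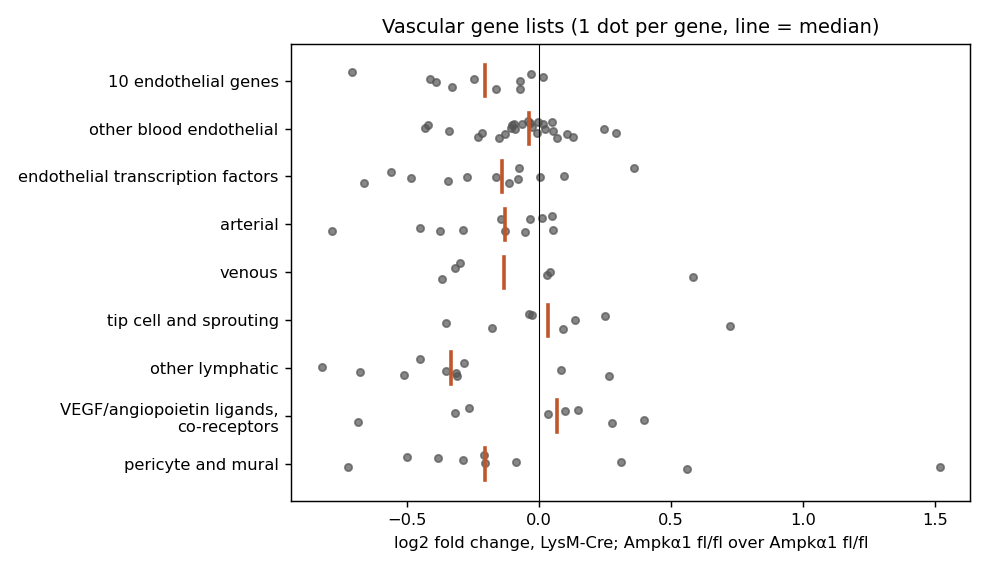
Log2 fold change of the knockout over the control group for each tested gene of the 10 endothelial genes and of 8 further vascular lists (1 dot per gene, with the median as a line). The medians are lowest for the other lymphatic genes (-0.33) and lie at -0.21 for the 10 genes and at -0.04 for the other blood endothelial genes.

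The other lymphatic genes had the lowest median of the 8 lists, -0.33, and 8 of 10 estimates below 0, with none called and 4 at an unadjusted p under 0.05, of which 3 were lower, beside 14.5% and 8.55% of all genes. *Lyve1*, the hyaluronan receptor of lymphatic endothelium that resident macrophages also carry, had 43.2, 55.9 and 47.0 CPM in control mice and 26.8, 32.7 and 23.2 CPM in knockout mice. Its groups were well apart, with a log2 fold change of -0.82 ± 0.15 and adjusted p = 0.0664 by edgeR, and 0.049 with the block. *Ccl21a*, the chemokine by which lymphatic vessels draw in dendritic cells, had 48.1, 64.5 and 41.6 CPM against 33.6, 46.1 and 33.3 CPM, which overlapped (log2 fold change -0.45 ± 0.19, adjusted p = 0.353, edgeR). *Mmrn1*, the gene of multimerin 1, chosen after its values were seen, had 25.6, 28.4 and 20.3 CPM against 16.9, 17.9 and 11.6 CPM (log2 fold change -0.68 ± 0.19, adjusted p = 0.175, edgeR).

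In the same list, 2 estimates were above 0. *Pdpn*, which fibroblasts express as well, had a log2 fold change of 0.09 ± 0.11, and *Gja1*, the connexin 43 gene of many cell types, 0.27 ± 0.08 (adjusted p = 0.779 and 0.182, edgeR). Macrophages also carry *Lyve1*, and none of their 10 marker genes was called by edgeR. At an unadjusted p under 0.05, 5 of them were lower, beside 8.55% of all genes. The summed level of these 10 genes was 1534 to 1591 TPM in control mice and 1129 to 1425 TPM in knockout mice. In 8 of the 10 the estimate was below 0, among them *Csf1r* (-0.64 ± 0.13, adjusted p = 0.0933, edgeR) and *Mrc1* (-0.83 ± 0.19, adjusted p = 0.115, edgeR). The other 2, *Cd68* (0.25 ± 0.14) and *Fcgr1* (0.11 ± 0.13), were above 0. *Mrc1*, *Cd68* and *Fcgr1* were chosen after their values were seen. The part of macrophages in the *Lyve1* value was not tested.

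**Figure D5:**
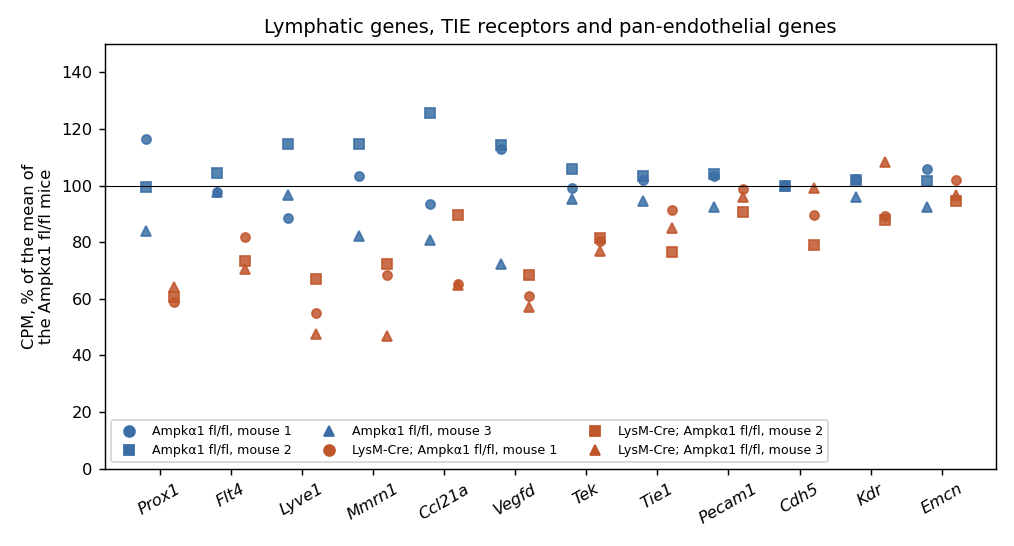
CPM of each mouse as a percentage of the control mean for lymphatic genes (Prox1, Flt4, Lyve1, Mmrn1, Ccl21a), the ligand gene Vegfd, the TIE receptors and 4 pan-endothelial genes, with control in blue and knockout in orange. Prox1 lies between 59% and 64% of the control mean in the 3 knockout mice, and the points of Pecam1, Kdr and Emcn lie around 100% in both groups.

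The other blood endothelial genes, 26 in number, gave a median log2 fold change of -0.04, with 17 estimates below 0 and 9 above. None was called by edgeR. At an unadjusted p under 0.05, 5 were lower and 1 higher, beside 8.55% lower and 14.5% either way of all genes. *Eng*, the TGF-β co-receptor endoglin, had 149, 147 and 146 CPM against 143, 152 and 146 CPM. *Plvap*, of the diaphragms of fenestrated capillaries, had 115, 119 and 88.8 CPM against 109, 114 and 94.0 CPM. Both overlapped between the groups, as did *Tm4sf1*. *Cd34*, which fibroblasts carry too, was lower without overlap, at 385, 445 and 350 CPM against 280, 333 and 261 CPM (log2 fold change -0.43 ± 0.12, adjusted p = 0.169, edgeR).

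Since vessel content can differ between pieces of tissue, each of the 10 genes was also set against the summed reads of these 26 genes, a measure chosen after the data were seen. That sum was 1719, 1849 and 1585 CPM in control mice and 1578, 1587 and 1559 CPM in knockout mice, and 20.8% of its reads were *Cd34*. Per 1000 such reads, *Prox1* had 8.34, 6.62 and 6.51 reads in control mice and 4.60, 4.70 and 5.06 in knockout mice. *Flt4* had 14.96, 14.9 and 16.2 against 13.6, 12.2 and 11.9, and *Tek* had 38.4, 38.1 and 39.9 against 33.9, 34.2 and 32.9. These 3 genes therefore kept separate groups on this scale too, each with an exact permutation p of 0.1, the smallest possible. Their edgeR estimates on this scale were nearer 0 than in the main fit. They were -0.58 ± 0.14 for *Prox1*, -0.29 ± 0.10 for *Flt4* and -0.20 ± 0.07 for *Tek* (adjusted p = 0.126, 0.217 and 0.21, edgeR). *Tie1*, *Cdh5* and *Vwf* overlapped. *Flt1* had 23.4, 20.6 and 20.9 against 23.6, 23.99 and 23.9, higher without overlap (p = 0.1 by the same exact test). On this scale the median of all genes shifted by 0.12 on the log2 scale, and *Pecam1*, *Emcn* and *Kdr* had estimates above 0 (0.05, 0.09 and 0.05) that were below that shift, while that of *Flt1* was 0.14, close to it.

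Genes of endothelial transcription factors had -0.14 as their median log2 fold change, and 9 of 12 estimates lay below 0. *Klf2*, which blood flow induces, had 66.1, 60.4 and 60.6 CPM against 64.8, 59.7 and 63.2 CPM, and *Sox18*, which acts upstream of *Prox1* in the embryo, had 43.7, 45.0 and 43.1 CPM against 39.0, 41.2 and 41.8 CPM. The *Sox18* groups were separate by a narrow gap (log2 fold change -0.11 ± 0.06, adjusted p = 0.415, edgeR). *Gata2*, which is active in lymphatic valves and in blood progenitors, had 12.3, 13.2 and 10.9 CPM against 8.29, 8.17 and 6.54 CPM (log2 fold change -0.66 ± 0.14, adjusted p = 0.0886, edgeR). *Erg*, an ETS factor of all endothelium, was on the other side, with 42.9, 36.2 and 31.0 CPM against 47.7, 44.9 and 48.6 CPM (log2 fold change 0.36 ± 0.12, adjusted p = 0.222, edgeR). *Gata2* and *Erg* were chosen after their values were seen.

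Arterial and venous genes had a median of -0.13 each, with 8 of 11 and 3 of 6 estimates below 0. *Efnb2*, the arterial ephrin-B2 gene, stood at 52.9, 48.7 and 53.4 CPM against 52.5, 49.6 and 54.4 CPM. Its venous receptor gene *Ephb4* likewise overlapped, with 140, 147 and 132 CPM against 151, 138 and 143 CPM. *Gja4*, of connexin 37, was lower without overlap (26.3, 26.4 and 24.6 CPM against 19.7, 22.9 and 17.0 CPM, adjusted p = 0.201, edgeR), as was the apelin receptor gene *Aplnr* (110, 116 and 102 CPM against 90.7, 66.0 and 97.7 CPM, adjusted p = 0.301). Among 8 tip cell and sprouting genes, 4 estimates were below 0 and 4 above. *Plxnd1*, with the highest TPM of that list, was lower without overlap. It had 210, 213 and 224 CPM against 198, 178 and 196 CPM (log2 fold change -0.18 ± 0.06, adjusted p = 0.256, edgeR). *Pdgfb* and *Apln* overlapped between the groups. *Cxcr4*, the CXCL12 receptor of tip cells and of leukocytes, had the highest estimate of that list, with 10.7, 9.83 and 10.7 CPM against 19.7, 14.5 and 17.5 CPM (log2 fold change 0.73 ± 0.13, adjusted p = 0.0628, edgeR).

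Among the ligands and co-receptors, *Vegfa* overlapped between the groups (58.5, 61.4 and 62.3 CPM against 57.3, 62.6 and 75.2 CPM), as did *Vegfb*. The ligand genes of VEGFR3 had estimates below 0. *Vegfd* had 8.04, 8.14 and 5.15 CPM against 4.33, 4.87 and 4.05 CPM, without overlap, and *Vegfc* had 10.3, 15.0 and 13.9 CPM against 11.2, 10.6 and 10.8 CPM, with overlap (log2 fold changes -0.69 ± 0.21 and -0.26 ± 0.15, adjusted p = 0.193 and 0.484, edgeR). Of the TIE2 ligands, *Angpt1* overlapped, with 14.6, 16.6 and 16.3 CPM against 16.5, 15.4 and 16.7 CPM. *Angpt2*, which was counted among the tip cell genes and encodes a ligand that can oppose ANGPT1 at TIE2, had 26.4, 28.2 and 25.6 CPM against 24.9, 24.1 and 13.7 CPM, without overlap and with knockout mouse 3 far below the others (log2 fold change -0.35 ± 0.21, adjusted p = 0.511, edgeR). *Vegfc*, *Vegfd*, *Angpt1* and *Angpt2* are named here because their receptors are in the set.

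The neuropilins, co-receptors of VEGF, had estimates of opposite sign, and neither passed the threshold. *Nrp1*, the partner of VEGFR2, had 187, 184 and 177 CPM against 154, 150 and 135 CPM, and *Nrp2*, the partner of VEGFR3 in lymphatic vessels, had 151, 132 and 143 CPM against 211, 165 and 185 CPM. Neither pair of groups overlapped (log2 fold changes -0.32 ± 0.06 and 0.40 ± 0.10, adjusted p = 0.0869 and 0.137, edgeR). Other cell types also carry both genes.

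Pericytes and smooth muscle cells wrap the vessels. Of their 10 genes, 7 had an estimate below 0 and 3 above, with a median of -0.21. No gene of this list was called by edgeR. At an unadjusted p under 0.05, 5 were lower and 2 higher, beside 8.55% lower and 14.5% either way of all genes. In 5, every knockout mouse lay below every control mouse, beside 11.4% of all genes. *Notch3* was chosen for its adjusted p, the lowest of the list. It had 162, 159 and 161 CPM against 124, 119 and 97.5 CPM (log2 fold change -0.50 ± 0.09, adjusted p = 0.0721, edgeR). *Rgs5*, a pericyte marker, had 503, 525 and 427 CPM against 372, 368 and 375 CPM, without overlap (log2 fold change -0.38 ± 0.08, adjusted p = 0.101, edgeR), whereas *Pdgfrb*, which fibroblasts share, had 225, 236 and 216 CPM against 327, 234 and 279 CPM. *Des*, also a skeletal muscle gene, was between 30.1 and 119 CPM in control mice and between 81.1 and 368 CPM in knockout mice. Platelets carry *Vwf* and *Pecam1* as well, and of the genes particular to them 5 of 5 tested had estimates below 0. *Pf4*, the platelet factor 4 gene, had 47.8, 48.2 and 35.6 CPM against 28.8, 33.7 and 24.8 CPM (log2 fold change -0.59 ± 0.15, adjusted p = 0.146, edgeR), and the part of platelets in the *Vwf* value was not tested. The platelet glycoprotein genes *Gp9*, *Gp5* and *Gp6* were below the filter, at under 0.6 CPM in every library.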

How the data were processed

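The authors sequenced tendon RNA of 3 *Ampkα1 fl/fl* and 3 *LysM-Cre; Ampkα1 fl/fl* mice on the BGISEQ platform. The deposited table gives, for 65053 transcripts and each mouse, an estimated count, which is not normalized, and TPM values that the authors scaled to transcript length and library total. The submitters' processing notes name the build GRCm38.p6, and the aligner, counting tool and strand setting are not given in the sources used here. A further 20 value columns (6 FPKM, 6 normalized count and 8 average columns) were not used.

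Estimated counts were summed over transcripts by NCBI Gene identifier and rounded, which gave 18099 genes, of which 18049 (99.72%) were matched to a RefSeq symbol. Libraries had a median of 18548387 reads. CPM are reads per 1000000 after TMM scaling. The test was edgeR's quasi-likelihood F test (version 4.0.16, R 4.3.3), without covariates, after TMM scaling and filterByExpr, and Benjamini-Hochberg adjustment over 14261 genes, with a threshold of 0.05. Each standard error is |log2 fold change| over the root of F. Exact two-sided permutation tests used log2(CPM + 0.5). The script was tested on simulated counts in which 200 genes were changed by a log2 fold change of 1. There, 8.12% of the edgeR calls were false, 13.55% with the replicate block and 21.53% with DESeq2. Whether libraries of a group are separate animals is stated for the study as 3 mice per condition, and p-values measure the spread between these libraries.

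Alternatives were DESeq2 1.42.0, RLE and upper-quartile scaling, no filter, at least 10 reads in every library, a covariate for skeletal muscle content, limma 3.58.1 on log2(TPM + 0.1), mouse number as block, and leaving out each mouse. Scaling to 26 blood endothelial genes was chosen after seeing the data. The deviations of same-numbered libraries from their group means had correlations of 0.184, 0.118 and 0.31. Control mouse 1 and knockout mouse 2 correlated more (0.501). Control mouse 2 with knockout mouse 3 (0.127) and control mouse 3 with knockout mouse 1 (0.102) were also above 0. The remaining pairs lay between -0.55 and -0.318, and whether the numbers mark a shared block is not known. The pairing comes from the label numbers only.

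The members and lists were chosen with earlier results of these data known. The rule for named genes took all 10 members, the genes of each list with adjusted p under 0.05 and otherwise up to 4 with the highest mean TPM, transcripts with at least 5% of a member's reads, the 5 genes closest to the members' mean, and *Ddx3y*, *Prkaa1* and *Lyz2*. RefSeq genes overlap *Cdh5*, *Emcn*, *Kdr*, *Flt1* and *Prox1*, and none of these neighbours is in the table. Promoters were not printed for *Pecam1*, *Cdh5* and *Vwf*. *Xist* was looked up, and no gene of the expression table was matched to that symbol.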

Additional observations from a re-analysis of the deposited data

How the results depend on the processing

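Of 150 values of the 10 genes under 15 alternatives, 141 kept their direction and their side of the threshold, 3 passed it and 6 changed sign. DESeq2 called 3 of the 10 genes (*Tek*, *Prox1* and *Flt4*), 12 of the other vascular genes and 680 of all genes. The replicate block called 0 of the 10, 1 of the other vascular genes (*Lyve1*) and 47 of all genes (36 lower, 11 higher) in place of 128 (81 lower, 47 higher), and changed no other call of the 10 genes. With the muscle score as a covariate, 1 other vascular gene (*Sele*, higher) and 81 genes in all were called, and *Emcn* turned to 0.0168. Limma on TPM called 61 genes. Scaling to the blood endothelial genes called 83 genes, 38 lower and 45 higher, and turned *Pecam1* to 0.0533, *Kdr* to 0.0515 and *Emcn* to 0.0919, below the shift of 0.12 of all genes. Leaving out 1 mouse gave 0 calls among the 10 genes, 0 to 3 among the other vascular genes and 8 to 276 among all genes, the most without knockout mouse 2, where *Lyve1*, *Cxcr4* and *Lyl1* were called. It moved *Emcn* between -0.0836 and 0.0125 (above 0 without control mouse 1) and *Flt1* between -0.0594 (without control mouse 3) and 0.0767. The cause of these changes was not tested. With 3 mice a group, an SE of 0.06 to 0.25 on the log2 scale limits what could be told apart, and the exact test cannot go below 0.1.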

Other observations

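Y-linked genes were measured in all 6 libraries. *Ddx3y* had 332, 347 and 490 reads in control mice 1, 2 and 3 and 705, 701 and 1039 reads in knockout mice, with a log2 fold change of 1.05 (adjusted p = 0.0933 by edgeR, 0.0134 with the replicate block). The groups did not overlap in any of the 4 Y-linked genes tested. The endothelial values above were measured in the same libraries, and the part of this difference in them was not tested.

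All 10 cell division genes were lowest in knockout mouse 1, with a median log2 fold change of -0.62 and none called by edgeR, and their summed level was 295 to 373 TPM in control mice and 176 to 273 TPM in knockout mice. Among 10 tendon genes, *Dcn*, the gene of the proteoglycan decorin, was called lower (log2 fold change -0.45, adjusted p = 0.0301 by edgeR, 0.0611 with the replicate block), and its reads were 55311, 58102 and 53816 in control mice and 43095, 41863 and 38841 in knockout mice.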
